A study of Mus musculus with 23 samples.

Results

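The 34 genes described here serve protein folding in the endoplasmic reticulum (ER) and the unfolded protein response (UPR). They were taken by name, from 55416 gene rows in all, and each was found in the count tables. They comprise 10 chaperones and co-chaperones, 5 folding enzymes, 3 genes of translocation, glycosylation or secretion, 7 of ER-associated degradation, 6 sensors and regulators, and 3 targets of the integrated stress response. All 34 passed the filter on low counts, through both diets together, and were among the 13405 genes tested.

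The RNA came from scrapings, taken at the proximal end of the small intestine, of 23 mice of the inbred strain C57BL/6JRccHsd, all labelled female. In the galactose group (GAL42, n = 12) galactose supplied 16% of dietary energy and glucose another 16%. In the glucose group (GLU42, n = 11) glucose alone supplied 32%, and the diets were otherwise the same. Feeding ran for 3 weeks from 21 to 42 days of age, with mice stratified by body weight.

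Proteins bound for the brush border, mucus, chylomicrons or the blood fold in the ER, where the chaperone BiP (Hspa5) binds unfolded chains and the protein disulfide isomerases form their disulfide bonds. When unfolded proteins accumulate, 3 sensors respond. IRE1 (Ern1, and Ern2 in mucosal epithelia) splices the Xbp1 message, and ATF6 is cut to a transcription factor. PERK phosphorylates eIF2α, which favours translation of Atf4, a regulator upstream of Ddit3 (CHOP). ATF6 and XBP1 act on chaperone and degradation genes through the ER stress element (ERSE) in their promoters, and ATF4 on amino acid and redox genes through a C/EBP-ATF element (CARE). Gene counts measure the amount of message, and do not show splicing, cleavage or phosphorylation.

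The promoters of the members were searched for the letters of these elements. RefSeq promoters (build GRCm38.p6, 250 bases before to 50 after the start site) were at hand for 28 of the 34 members, and 4 motifs were sought on both strands. The ERSE, spelled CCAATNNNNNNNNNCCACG, was found in 9 of 28 members (Hspa5, Hsp90b1, Dnajc3, Calr, Canx, Pdia6, Creld2, Syvn1 and Derl3) and in 0.119% of all 32851 promoters. The second form, ERSE-II, is ATTGG and CCACG with 1 base between them and lay in Herpud1 and Dnajb11 and in 0.0365% of promoters. The core of the XBP1-binding element, TGACGTG, lay in Hspa5 and Mydgf and in 2.01%. The CARE, TGATGNAA, lay in Trib3, Asns and Chac1, which are all 3 integrated stress response targets of the list, in Herpud1, and in 3.97%. A match is a run of letters and not a shown binding site.

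The stretch of 170 bases before the Hspa5 start site is printed because it holds both the ERSE, whose first base lies 65 bases before the start, and the XBP1 element core, each in capitals (5′ to 3′ on the gene's strand, GRCm38.p6, chr2:34771920-34772089, plus strand).
Hspa5: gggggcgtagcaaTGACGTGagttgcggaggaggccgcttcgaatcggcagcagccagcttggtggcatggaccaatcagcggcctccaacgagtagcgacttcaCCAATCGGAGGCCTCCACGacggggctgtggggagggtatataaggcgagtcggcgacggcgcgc

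The next windows, each the motif in capitals with up to 20 bases on either side, are shown to compare the ERSE of members with larger (Calr, Creld2, Pdia6) and smaller (Canx, Dnajc3) log2 differences, none of which passed the test, and then the CARE of Chac1 and Asns. On the gene's strand the ERSE of Calr and Creld2 reads in reverse, with CGTGG first and ATTGG last. The CARE of Chac1 also reads in reverse, as TTGCATCA. They come from GRCm38.p6 at chr8:84847055-84847113 (minus) for Calr, chr15:88819500-88819558 (plus) for Creld2, chr12:17266471-17266529 (plus) for Pdia6, chr11:50325780-50325838 (minus) for Canx, chr14:118937807-118937865 (plus) for Dnajc3, chr2:119351029-119351076 (plus) for Chac1 and chr6:7693210-7693252 (minus) for Asns.
Calr: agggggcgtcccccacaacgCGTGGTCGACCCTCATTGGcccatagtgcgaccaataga
Creld2: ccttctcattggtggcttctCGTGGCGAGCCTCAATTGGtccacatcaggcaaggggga
Pdia6: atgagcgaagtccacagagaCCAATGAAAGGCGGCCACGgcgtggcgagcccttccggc
Canx: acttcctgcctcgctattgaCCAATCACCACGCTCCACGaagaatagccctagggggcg
Dnajc3: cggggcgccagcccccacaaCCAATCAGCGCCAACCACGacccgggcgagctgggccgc
Chac1: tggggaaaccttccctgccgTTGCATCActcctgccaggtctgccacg
Asns: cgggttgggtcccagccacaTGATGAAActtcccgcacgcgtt

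Libraries held 15382583 to 17174721 counts in genes, and members took 0.701 to 0.903% of them. The summed level of 10 enterocyte markers was 60760 to 92930 CPM (counts scaled to a common library total, TMM-adjusted), and that of 3 distal ileum markers 0.178 to 9.004 CPM. In a bulk scraping fewer cells of a type and less RNA per cell cannot be told apart. Galactose replicate 12, labelled female, held 225 counts of 4 Y-linked genes, where any other library held at most 1. Galactose replicate 2 held 713.8 CPM of pancreatic acinar genes, where the next highest library held 64.0 CPM. Per kilobase of the longest transcript, P4hb was the most abundant member, at 1192 CPM per kb, followed by Calr at 319, Pdia3 at 158, Hspa5 at 117 and Hsp90b1 at 107. The regulators Atf4 (102) and Xbp1 (98.6) came next. Chac1, at 0.498, Derl3, at 1.29, and Ern2, at 3.33 CPM per kb, were the lowest.

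Between the diets, no member passed the test (edgeR's quasi-likelihood test, Benjamini-Hochberg over all tested genes), and 0% of all tested genes did, with a smallest adjusted p of 0.135. At an unadjusted p under 0.05, 12 of 34 members (35.3%) were higher on galactose, where 8.63% of all tested genes were. At the same p 0 members were lower, where 5.72% of all tested genes were. The members were chosen with earlier results of these data known, which may shape these shares, so they are a description. Log2 differences are galactose minus glucose. Their median was 0.11 over the members and -0.0017 over all tested genes, and 27 of 34 members had positive values. The 12 were 7 chaperones, 2 folding enzymes, Mydgf, Sec61b and Derl1. None of the 6 sensors and regulators and none of the 3 integrated stress response targets was among them. The difference between the roles was not tested. In every member the ranges of the 2 groups overlapped.

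**Figure D1:**
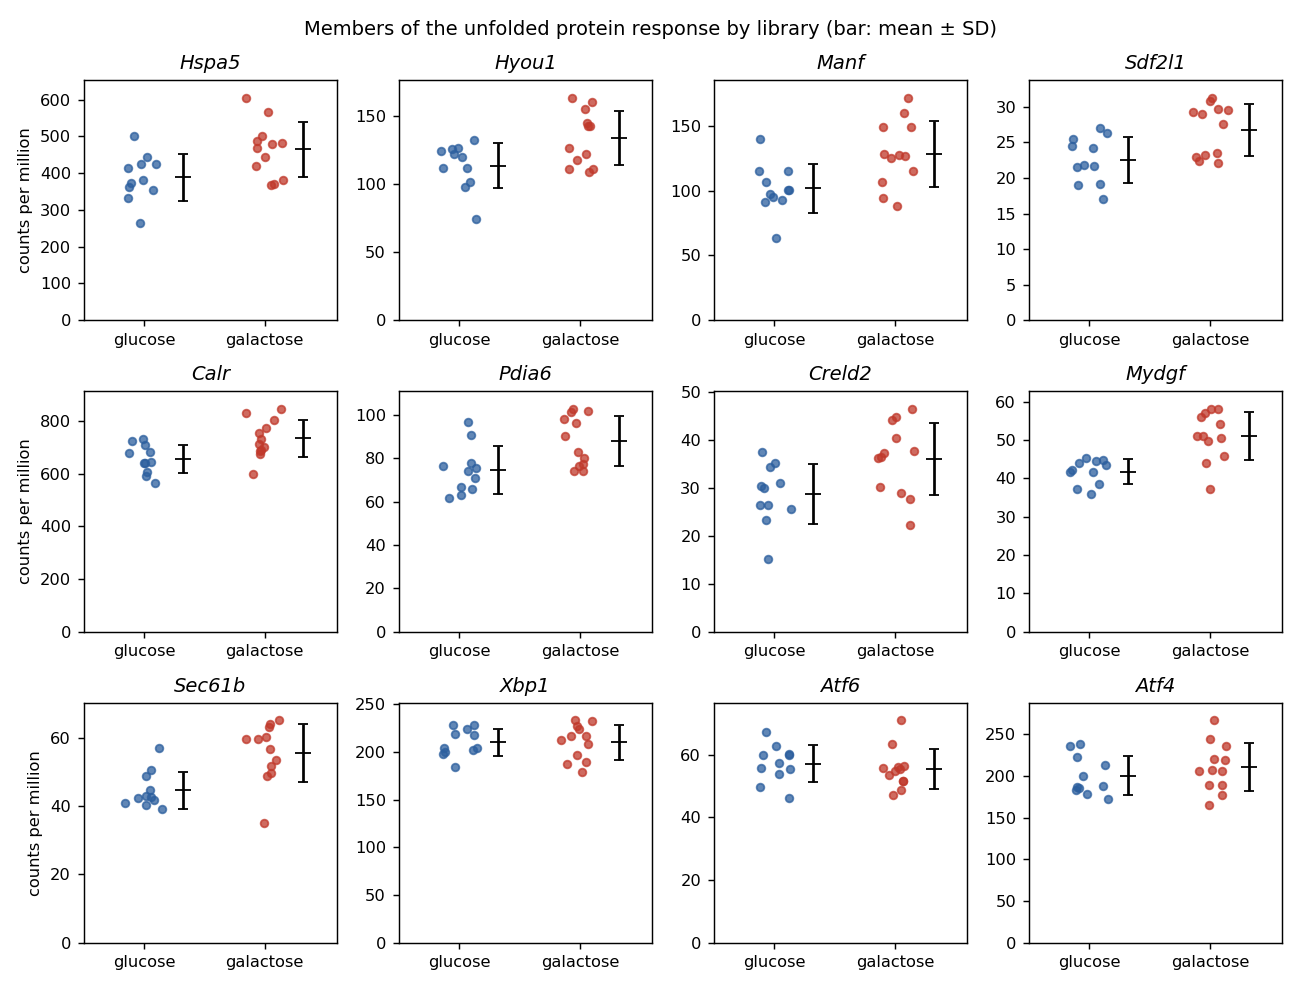
Level in CPM (y axis) of 12 members in each library, with 11 glucose libraries in blue, 12 galactose libraries in red, and the mean ± SD as a black bar beside each group. Mydgf lies above the highest glucose library in 10 of 12 galactose libraries, while Xbp1 has a mean of 210 CPM in both groups.

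Among the chaperones, Manf, a small ER protein that binds BiP and can be secreted, had the smallest p. It had 63.4 to 139.8 CPM on glucose (median 100.4) and 88.2 to 171.6 CPM on galactose (median 127.1). The groups overlapped widely, with 10 of 12 galactose libraries above the glucose median and 4 above the glucose maximum. The log2 difference was 0.34 ± 0.11 (SE), with p = 0.0045 and adjusted p = 0.183 by edgeR.

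Sdf2l1, a partner of the co-chaperone ERdj3, had 17.1 to 27 CPM on glucose (median 21.8) and 22.2 to 31.3 CPM on galactose (median 28.3). All 12 galactose libraries lay above the glucose median, and 6 glucose libraries lay below the lowest galactose library. The log2 difference was 0.25 ± 0.08, with an adjusted p of 0.192 by edgeR. ERdj3 itself, Dnajb11, delivers unfolded chains to BiP and had 71.9 to 99.96 CPM on glucose (median 89.5) and 81.1 to 119.0 CPM on galactose (median 99.6). Of the galactose libraries, 6 lay above the glucose maximum. Its log2 difference was 0.18 ± 0.06, with p = 0.0096 and adjusted p = 0.211 by edgeR.

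Hspa5, the central chaperone BiP, had 264.5 to 501.5 CPM on glucose (median 380.0) and 366.8 to 604.9 CPM on galactose (median 474.7). Of the galactose libraries, 10 of 12 lay above the glucose median but only 2 above the glucose maximum. The log2 difference was 0.26 ± 0.09, a level 19.5% higher, with p = 0.0099 and adjusted p = 0.213 by edgeR. Its nucleotide exchange factor Hyou1 stood at 0.24 ± 0.09. The lectin chaperone Calr stood at 0.16 ± 0.06 and the ER HSP90 Hsp90b1 at 0.15 ± 0.07. These 3 also had an unadjusted p under 0.05. The other 3 chaperones did not, with log2 differences of 0.11 for Dnajb9, 0.06 for the membrane lectin Canx and -0.0036 for Dnajc3, an inhibitor of PERK. Dnajb9 and Dnajc3 are known XBP1 targets. The members were not sorted by XBP1 dependence, and others may share it, so these values do not describe that branch.

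The folding enzymes lay between 0.03 and 0.33, all 5 with a positive sign. Pdia6, a disulfide isomerase that also acts on IRE1, had 61.8 to 96.7 CPM on glucose (median 74.0) and 74.1 to 102.8 CPM on galactose (median 86.7). Again all 12 galactose libraries were above the glucose median, with 4 above the glucose maximum. The log2 difference was 0.24 ± 0.08, with p = 0.0054 and adjusted p = 0.192 by edgeR. Creld2, an ER stress-induced protein, had 15.2 to 37.5 CPM on glucose (median 30.1) and 22.2 to 46.5 CPM on galactose (median 36.9). With 5 galactose libraries above the glucose maximum, its log2 difference was 0.33 ± 0.13 (adjusted p = 0.234 by edgeR). The disulfide isomerase Pdia4 had 39.5 to 75.7 CPM on glucose (median 62.6) and 55.5 to 80.2 CPM on galactose (median 68.7), a log2 difference of 0.17 ± 0.08. Only 1 galactose library lay above the glucose maximum. Pdia3, which works with calnexin and calreticulin, stood at 0.09 ± 0.05. P4hb, protein disulfide isomerase itself and a subunit of the triglyceride transfer protein that loads chylomicrons, had 3368 ± 278 CPM on glucose and 3449 ± 396 CPM on galactose (mean ± SD). The most abundant member was thus among those with the least difference, at 0.03 ± 0.07.

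The smallest p-values of the list belonged to 2 members outside these roles. Mydgf, a small secreted factor kept in the ER and Golgi, ranked 9 of 13405 genes by p. Its glucose libraries lay close together, from 35.97 to 45.2 CPM (median 42.1), and its galactose libraries ranged from 37.1 to 58.0 CPM (median 51.0). Only galactose replicates 1 and 7, at 44.0 and 37.1 CPM, did not exceed the glucose maximum. The log2 difference was 0.29 ± 0.07, with p = 0.000135 and adjusted p = 0.135 by edgeR. Sec61b, a subunit of the channel through which new chains enter the ER, ranked 65. It had 39.1 to 57.0 CPM on glucose (median 42.6) and 34.9 to 65.0 CPM on galactose (median 58.0), and galactose replicate 7 was the lowest of all libraries. The log2 difference was 0.32 ± 0.08 (adjusted p = 0.138 by edgeR). Ostc, a subunit of the oligosaccharyltransferase that glycosylates new chains, stood at 0.11 ± 0.06. Mydgf and Sec61b were also the only members called by other tools or without 1 library. DESeq2 gave them adjusted p-values of 0.0219 and 0.0440 (0.642% of all tested genes called). By limma-voom with sample quality weights the value was 0.0323 for both (1.25% called). By edgeR without galactose replicate 7 it was 0.0170 and 0.0241 (1.64% called).

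**Figure D2:**
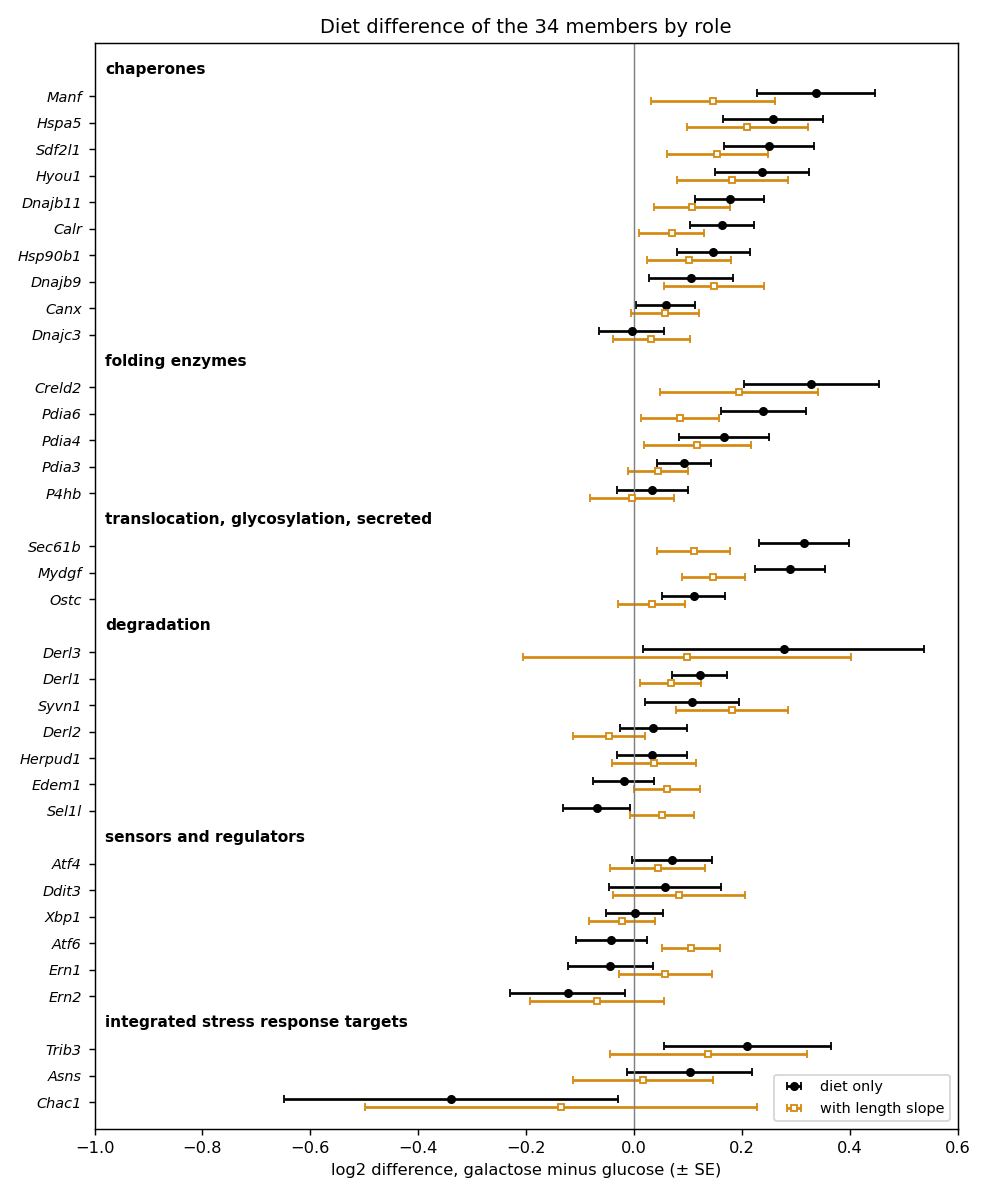
Log2 difference, galactose minus glucose, with its SE for the 34 members by role. Filled black circles are from the fit with diet only and open orange squares from the fit that adds each library's length slope. The chaperones and folding enzymes lie mostly right of 0 and the sensors around it, and Mydgf moves from 0.29 to 0.15 with the slope in the fit.

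Degradation genes showed smaller differences, with a median of 0.04. Derl1, a channel component of ER-associated degradation, had 120.5 to 140.9 CPM on glucose (median 130.3) and 120.7 to 167.7 CPM on galactose (median 142.3). Of the galactose libraries, 7 of 12 lay above the glucose maximum, at a log2 difference of 0.12 ± 0.05 (p = 0.0245, adjusted p = 0.276 by edgeR). Its highest library was galactose replicate 2, which also held the most acinar transcripts. Without that library 0 of 7 degradation genes were higher at an unadjusted p under 0.05 by edgeR, beside 1104 of 13362 tested genes. The ubiquitin ligase Syvn1 had 88.8 to 143.3 CPM on glucose (median 127.6) and 96.3 to 163.0 CPM on galactose (median 135.3), at 0.11 ± 0.09. Its partner Sel1l had 164.9 to 243.2 CPM on glucose (median 194.4) and 166.5 to 223.2 CPM on galactose (median 183.5), at -0.07 ± 0.06. For both, the libraries of the diets were interleaved. Herpud1, Derl2 and the mannosidase-like Edem1 lay between -0.02 and 0.04. Derl3 had at least 9 counts per library and a wide error, at 0.28 ± 0.26.

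The 6 sensors and regulators of the list differed little. PERK (Eif2ak3) is not on the list and is counted below with the other genes of the pathway. Xbp1 had 184.5 to 228.3 CPM on glucose (median 204.2) and 178.4 to 232.9 CPM on galactose (median 214.1), with a log2 difference of 0.0015 ± 0.0527. Its sign changed under all 7 alternatives other than leaving out a library. Atf4 had 172.4 to 238.2 CPM on glucose (median 188.6) and 165.4 to 266.9 CPM on galactose (median 207.0), at 0.07 ± 0.07. Ddit3 had 10.8 to 17.1 CPM on glucose (median 13.5) and 8.403 to 19.2 CPM on galactose (median 14.2), at 0.06 ± 0.10. In both, the galactose range enclosed the glucose range. Atf6 had 46.1 to 67.1 CPM on glucose (median 57.2) and 47.0 to 70.9 CPM on galactose (median 55.1), at -0.04 ± 0.07. Ern1 had 28.2 to 41.4 CPM on glucose (median 32.0) and 23.9 to 37.9 CPM on galactose (median 30.9), at -0.04 ± 0.08. Ern2 had 7.23 to 12.6 CPM on glucose (median 10.2) and 6.60 to 12.99 CPM on galactose (median 9.22), at -0.12 ± 0.11. The smallest unadjusted p among these 6 was 0.260, for Ern2. Of the integrated stress response targets, the pseudokinase Trib3 had 8.73 to 24.9 CPM on glucose (median 16.8) and 12.5 to 28.5 CPM on galactose (median 17.9), at 0.21 ± 0.15. Asparagine synthetase Asns had 9.45 to 16.98 CPM on glucose (median 12.5) and 9.89 to 22.1 CPM on galactose (median 14.3), at 0.10 ± 0.12. The glutathione-degrading Chac1 had 0.116 to 1.95 CPM on glucose (median 0.881) and 0.194 to 1.38 CPM on galactose (median 0.671), at -0.34 ± 0.31, with as few as 2 counts in a library. The groups of all 3 overlapped over most of their range. Exons of Ddit3 overlap those of Mars on the other strand by 68 bases, and exons of Manf overlap Dcaf1 by 146 bases. Without the strand setting such reads cannot be told apart.

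By promoter motif, the 9 members with an ERSE had a median log2 difference of 0.16, and 5 of them were higher at an unadjusted p under 0.05, where 8.63% of all tested genes were. The 19 members with a promoter at hand but without an ERSE had a median of 0.07, and 4 were higher. Dnajb11, which is 1 of these 4, and Herpud1 carry the ERSE-II. No promoter was at hand for Manf, Hyou1, Derl1, Atf6, Ern2 and Ostc, so whether they hold an ERSE is not known here. Canx, Dnajc3 and Syvn1 carry the same element as Hspa5 and Creld2 but stood at 0.06, -0.0036 and 0.11. Outside the list, 6 tested genes held an ERSE, with a median of 0.02 and 1 higher at that p (Spats2l, 0.50 ± 0.23). The 4 members with a CARE had a median of 0.07 and 0 at that p. With so few genes, these are descriptions.

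Of 148 other genes of the pathway, 141 were tested, and 0 passed by edgeR. At an unadjusted p under 0.05, 23 (16.3%) were higher and 7 lower on galactose, beside 8.63% and 5.72% of all tested genes, and the median was 0.04. Genes of the translocon, the signal peptidase and their receptors had 7 of 24 higher and 1 lower (median 0.07), and ER oxidoreductases 3 of 19 higher and 0 lower (0.09). The eIF2α kinases, PERK among them, and phosphatase subunits had 1 of 6 higher and 0 lower (-0.09). In the list of other ATF4 targets 2 of 21 tested genes (9.52%, near the share of all genes) were higher and 1 lower (0.0005), and COPII coat and cargo receptor genes had 0 of 14 higher and 1 lower (-0.06). The 8 of smallest p were led by Selenos, a selenoprotein of ER-associated degradation, at 0.27 ± 0.07 (adjusted p = 0.138 by edgeR), and the signal peptidase subunit Sec11c, at 0.28 ± 0.08. Erp29, an ER folding factor, stood at 0.18, the prolyl isomerase Fkbp2 at 0.23, the membrane-bound transcription factor Creb3 at 0.15 and the translocon-associated Ssr2 at 0.20. The 2 others of the 8 had negative differences. Sesn2, a stress-induced leucine sensor and ATF4 target, stood at -0.26 ± 0.07, and Creb3l1, a transcription factor of secretory cells that is also in the goblet marker list, at -0.28 ± 0.09. Quality weights called 3 of the 141 genes (Selenos, Sec11c and Erp29), edgeR without galactose replicate 7 called 2 (Selenos and Sec11c), and DESeq2 called 0. Of all tested genes these fits called 1.25%, 1.64% and 0.642%, in the same order. With each library's slope of level on transcript length as a covariate, 1 of 141 was higher and 5 lower at an unadjusted p under 0.05. In that fit 510 of all 13405 tested genes were higher and 376 lower. The median of the 141 was -0.0002.

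Across the 23 libraries, with the mean of each diet removed, the members did not vary as 1 block. Of 561 pairs, 86 were positively and 4 negatively correlated (Pearson, permutation test with 100000 resamples, adjusted over all pairs). The share of such pairs among all tested genes was not computed, so these counts have no background beside them. The total of 90 was 59 without glucose replicate 11 and 72 without galactose replicate 7. Chaperones and folding enzymes made up 48 of the positive pairs, out of 105 such pairs. The closest pair was Hspa5 and Hyou1, at r = 0.92 and rho = 0.93 (both p = 1e-05, the smallest that these permutations give, adjusted p = 0.00033), and r = 0.89 without the 2 libraries farthest from the Hspa5 median. Manf and Creld2 had r = 0.91 and rho = 0.88 (p = 1e-05 for each, adjusted p = 0.00033), and r = 0.83 without the 2 farthest.

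**Figure D3:**
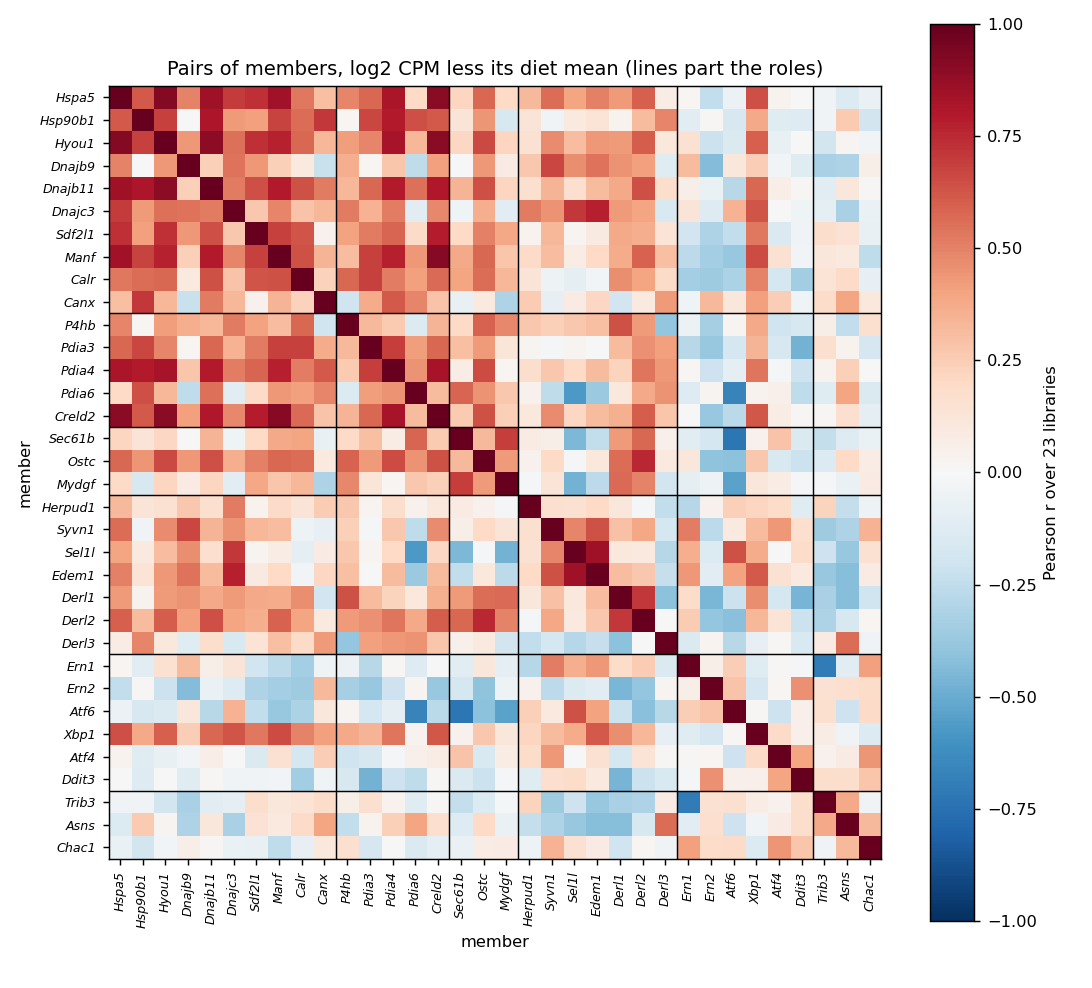
Pearson r between each pair of the 34 members over 23 libraries, from log2 CPM less its diet mean, with red for positive and blue for negative values and black lines between roles. Many pairs of chaperones and folding enzymes are red, with 48 of 105 called positive, and Xbp1 is red with Hspa5 (r = 0.64). The rows of Ern1, Ern2, Atf4, Ddit3, Trib3, Asns and Chac1 are mostly pale against the chaperones and folding enzymes.

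When all 13404 other tested genes were ranked by r with Hspa5, the first 5 were members, namely Hyou1 (0.92), Creld2 (0.90), Dnajb11 (0.85), Manf (0.84) and Pdia4 (0.81), and Sdf2l1 ranked 9 (0.73). The first 100 genes held 12 members and 10 other genes of the pathway. The median r over all tested genes was 8.73e-05. The other 4 of the first 10 were the adaptor gene Sh2d3c (0.76), the cargo lectin Lman2 (0.76), and the lymphocyte genes Cd3d (0.74) and Cd7 (0.73). Having been picked for their r, these genes are given without p. Xbp1 ranked 36 with r = 0.64 and rho = 0.66 (p = 0.00089 and 0.00091, adjusted p = 0.0111 and 0.0125), and r = 0.55 without the 2 libraries farthest from the Hspa5 median. Thus Xbp1 message varied with BiP between mice of a diet while its diet means were alike. Atf4 (0.03), Ern1 (0.02), Ddit3 (-0.0038), Trib3 (-0.03) and Atf6 (-0.06) had r near 0 with Hspa5. Chac1 (-0.07), Asns (-0.14) and Ern2 (-0.24) lay further below 0.

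The 7 degradation genes as a role had a median r of 0.15 among themselves, against 0.17 over all pairs, with 3 of 21 pairs called. Of these, Sel1l and Edem1 had r = 0.85 and rho = 0.84 (p = 1e-05 for each, adjusted p = 0.00033, r = 0.76 without the 2 farthest libraries). Derl1 and Derl2 had r = 0.70 and rho = 0.69 (p = 0.0002 and 0.00045, adjusted p = 0.00416, r = 0.62 without the 2 farthest). Among the negative pairs, Ern1 and Trib3 had r = -0.70 and rho = -0.70 (p = 0.0002 and 0.00026, adjusted p = 0.00416, r = -0.66 without the 2 farthest), and Sec61b and Atf6 had r = -0.72 and rho = -0.70 (p = 0.00012 and 0.0003, adjusted p = 0.00281, r = -0.53). No pair was adjusted for the length slope of the library, which is described next. That slope had r = -0.79 with Sec61b and 0.80 with Atf6, and 0.66 with Sel1l and 0.48 with Edem1. With Derl1 and Derl2 it had r = -0.40 and -0.49, and with Ern1 and Trib3 0.42 and -0.13.

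A library property moved with part of the list. In each library, the departure of every tested gene's log2 CPM from its average was regressed on log2 transcript length. A negative slope means that short transcripts read higher there. The slope was -0.0289 ± 0.0553 on galactose and 0.0315 ± 0.0450 on glucose (mean ± SD). With the diet means removed, 7 of 34 members correlated with it after adjustment over the 34. The share of all tested genes that did was not computed. Because the slope is fitted on transcript length, very short or long genes tend to follow it by construction. The 5 with negative r had longest transcripts of 723 to 2247 bases, and the 2 with positive r of 6300 and 7246. The median length was 2430 bases over the members and 3228 over all tested genes. Sec61b (r = -0.79, rho = -0.76, p = 2e-05 and 0.00011, adjusted p = 0.00034), Mydgf (r = -0.74, rho = -0.70, p = 5e-05 and 0.00035, adjusted p = 0.000567) and Pdia6 (r = -0.67, rho = -0.61, p = 0.0005 and 0.00254, adjusted p = 0.00388) led, with r = -0.74, -0.75 and -0.56 without the 2 libraries of most extreme slope. Calr (r = -0.59, rho = -0.59, adjusted p = 0.0169) and Manf (r = -0.52, rho = -0.51, adjusted p = 0.0489) followed. Atf6 (r = 0.80, rho = 0.76, adjusted p = 0.00034) and Sel1l (r = 0.66, rho = 0.69, adjusted p = 0.00388) went the other way. Hspa5 had r = -0.18 and rho = -0.12 (p = 0.421 and 0.573, adjusted p = 0.554), and Hyou1 r = -0.21. By size of r, Atf6 came first, followed by Sec61b and Mydgf, the 2 members of smallest diet p.

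**Figure D4:**
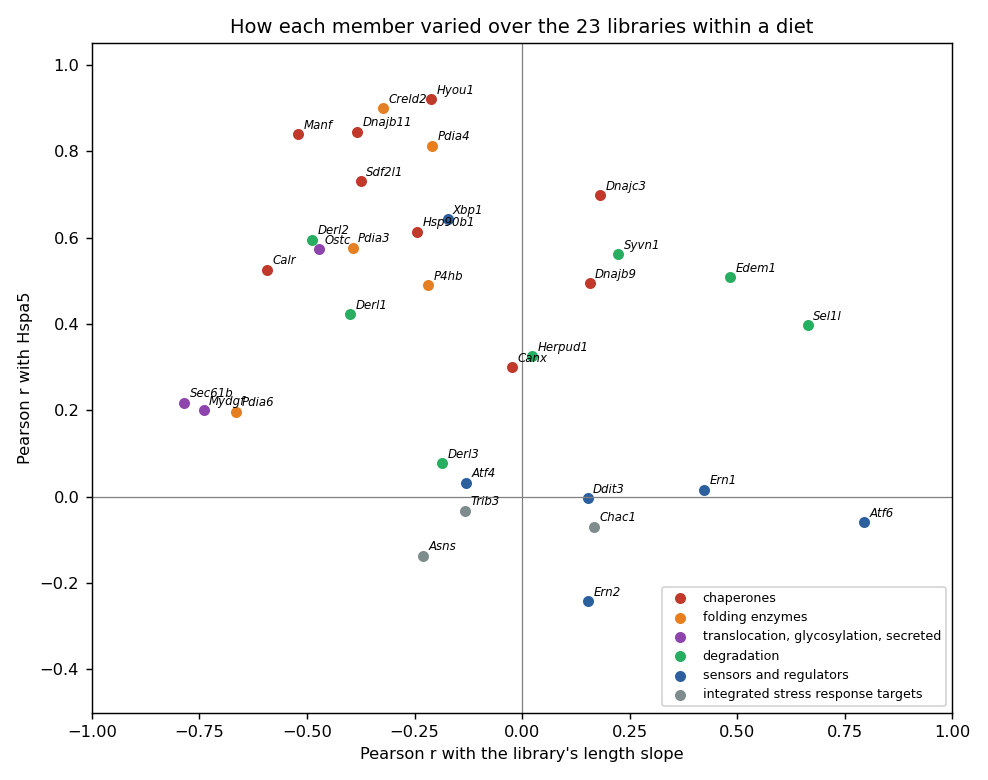
Each point is 1 member, with its Pearson r with the length slope of the library on the x axis and its r with Hspa5 on the y axis, over 23 libraries with diet means removed, coloured by role. Hyou1, Creld2, Dnajb11, Manf and Pdia4 sit at the top, while Sec61b, Mydgf and Pdia6 sit at the far left at r near 0.2 with Hspa5 and Atf6 at the far right.

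With the slope as a covariate, 1 of 34 members kept an unadjusted p under 0.05, Mydgf, at 0.15 ± 0.06 (p = 0.0184), where 3.8% of all tested genes were higher at that p. The slope itself differed in mean between the diets, so this fit cannot fully part diet from slope. Sec61b moved from 0.32 to 0.11 ± 0.07, Manf from 0.34 to 0.15 ± 0.11, Pdia6 from 0.24 to 0.09 ± 0.07 and Calr from 0.16 to 0.07 ± 0.06. Hspa5 kept 0.21 ± 0.11 (p = 0.0727) and Hyou1 0.18 ± 0.10 (p = 0.0890). The chaperone median went from 0.17 to 0.13, and 29 of 34 members were positive, with a median of 0.08. With 6 surrogate variables the median over the members was 0.03 and over the chaperones 0.06, with 0 of 10 chaperones at an unadjusted p under 0.05. Hspa5 stood at 0.08, Manf at 0.05, Sdf2l1 at 0.02 and Calr at 0.02. In that fit 4 members were higher at that p (3.89% of all tested genes higher), namely Mydgf (0.14), Pdia6 (0.12), the sensor Atf6 (0.12, p = 0.0380) and the integrated stress response target Trib3 (0.25, p = 0.0277). Without these variables Atf6 stood at -0.04 and Trib3 at 0.21, with unadjusted p of 0.529 and 0.187.

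Libraries and cell markers also moved beside the chaperones. Glucose replicate 11 was the lowest library for 11 of the 15 chaperones and folding enzymes. Without it the chaperone median was 0.15, 11 of 34 members were higher at an unadjusted p under 0.05 (7.46% of all tested genes), Hspa5 stood at 0.21 (p = 0.0202) and Hsp90b1 at 0.11 (p = 0.0823). Without galactose replicate 12, which carried the Y-linked counts, 11 members were also higher at that p (8.45% of all tested genes). T cell markers had positive differences in 8 of 8 genes, 6 of them at an unadjusted p under 0.05 with all libraries in the fit (8.63% of all tested genes higher, 5.72% lower), with a summed level of 47.4 to 111.8 CPM on galactose and 21.1 to 94.9 CPM on glucose. Among markers of secretory cells, whose ER is large, goblet cell genes had 2 of 10 positive and 3 lower at that p (8484 to 12780 CPM on galactose and 9318 to 13860 CPM on glucose). Paneth cell genes had 0 of 10 positive (411.2 to 1876 CPM and 371.1 to 2240 CPM). B and plasma cell genes had 6 of 8 tested genes positive and 2 higher and 1 lower at that p (616.2 to 2387 CPM and 541.3 to 1493 CPM). Every marker of these 4 lists had counts, and their part in the members' differences was not tested.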

How the data were processed

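RNA-seq counts from 23 mice were used, 12 on galactose and 11 on glucose, grouped by the diet label. The aligner STAR, the counter HTSeq and the build GRCm39 are named per the submitters' processing notes, without their versions. Annotation release, strand setting and filters: not given in the sources used here. Raw counts per gene were deposited, 1 table per mouse. The 5 rows that name no gene held 13.5% of reads and were left out. Gene symbols were looked up by Ensembl identifier in a reference name table, and transcript lengths (longest transcript) from GENCODE M21 by identifier.

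Genes were filtered with filterByExpr, scaled by TMM and tested with edgeR 4.0.16 (R 4.3.3) with diet as the only term, at a threshold of 0.05 after Benjamini-Hochberg adjustment over 13405 genes. CPM use TMM-scaled library sizes, and correlations use log2 CPM with a prior count of 2. Within a diet, 121 pairs of libraries had a chi-square per degree of freedom of 12.9 to 51.3, so none of these pairs was a copy. Pairs across the diets were not compared. Alternatives were DESeq2 1.42.0 and its size factors, limma-voom (3.58.1) with quality weights, other count filters, the length slope, surrogate variables (sva 3.50.0) and leaving out each library. The fit was tested on simulated counts.

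Named in full were the 3 members of smallest p per role, Hspa5 and 6 sensors and regulators, the 8 other pathway genes of smallest p and the 10 genes most like Hspa5. The rest were given by value or range. The members, lists and tests were chosen with earlier results of these data known. Names were not matched for 1 of the 148 other pathway genes. The replicate numbers were given in accession order, so they pair no mice.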

Additional observations from a re-analysis of the deposited data

Results flagged for a closer look

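Galactose replicate 12, labelled female, held 225 counts summed over Uty, Ddx3y, Eif2s3y and Kdm5d, which are Y-linked, where any other library held at most 1, and 4 Xist counts. These genes lie outside the comparison of the members. Without this library the median log2 difference of the members was 0.09, and 11 of 34 were higher at an unadjusted p under 0.05 by edgeR.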

How the results depend on the processing

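edgeR called 0 genes and 0 members with other size factors, either other count filter or the length slope. DESeq2 called 86 genes and 2 members, quality weights 167 and 2, and surrogate variables 4 and 0. At an unadjusted p under 0.05 there were 12 members, 1 with the length slope and 4 with surrogate variables. Leaving out each of the 23 libraries gave 0 to 219 genes, 0 to 2 members, 11 to 14 members at that p, and a median of 0.09 to 0.13. Calls appeared only without galactose replicate 7. The pair count was 90, and 59 to 72 without glucose replicate 11 or galactose replicate 7 (chosen after seeing the data). No paired analysis was possible because replicate numbers follow the order of deposit.

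Of 34 members, 23 kept their sign under every alternative run. Xbp1 turned to -0.0017 with other size factors, -0.0063 without a filter, -0.0040 at a mean of 1 CPM, -0.0018 by DESeq2, -0.0089 with quality weights, -0.0220 with the length slope and -0.0830 with surrogate variables. With the length slope Dnajc3 turned to 0.0325, P4hb to -0.0027, Sel1l to 0.0516, Edem1 to 0.0618, Derl2 to -0.0463, Ern1 to 0.0585 and Atf6 to 0.106. With surrogate variables P4hb turned to -0.0668, Creld2 to -0.0064, Ostc to -0.0177, Derl2 to -0.0954, Ern2 to 0.110, Atf6 to 0.121, Sh2d3c to -0.0657, Lman2 to -0.0257 and Cd7 to -0.143. Leaving out 1 library, Dnajc3 ranged from -0.0257 to 0.0281, Edem1 from -0.0381 to 0.0152 and Xbp1 from -0.0159 to 0.0171. The cause was not tested. Depth limits Chac1 and Derl3, whose lowest libraries held 2 and 9 counts.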
